A study of Mus musculus with 12 samples.

Results

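The 10 genes described here encode core parts of the mTOR growth-control pathway: Mtor, Rptor, Rictor, Tsc1, Tsc2, Rheb, Rps6kb1, Lamtor1, Lamtor2 and Lamtor5. They were found by symbol, by matching the Ensembl gene identifiers of the deposited count table to these names. The rule uses no measured value, although the set was drawn up with earlier results of these data known. All 10 were found among the 22462 genes of the table, and all 10 were among the 11750 genes that passed the filter on low counts.

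Ribosome profiling compared naive stem cells of the mouse embryo (ESCs) with the epiblast-like cells (EpiLCs) derived from them, to ask how mRNA level and translation change as naive pluripotent cells move towards the epiblast state. Ribosome protected fragments (RPFs), the stretches of mRNA covered by a ribosome, and matched total RNA were sequenced from each cell type, giving 4 groups of 3 libraries. ESCs were kept in Knockout DMEM with 15% serum, LIF and the 2i inhibitors PD0325901 and CHIR99021. EpiLCs were collected about 56 h after LIF and 2i had been taken away, and no group carried a further treatment or a mutation according to the labels. The study names a V6.5 ESC line with miR-290 mCherry and miR-302 GFP reporters for this differentiation, so the groups stand for 1 line. The study calls the replicates biological but the sources used here do not say whether they were separate cultures, so p-values measure the spread between these libraries.

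Total counts ranged from 4777262 to 11359352 in ESC RPF libraries, from 2681439 to 5413144 in EpiLC RPF libraries, from 11491044 to 13477432 in ESC total RNA and from 6188838 to 14655015 in EpiLC total RNA. EpiLC RPF replicate 2 was the shallowest library. The naive and primed markers matched the cell type labels. The summed level of 4 naive markers (Zfp42, Esrrb, Klf4, Nanog) in total RNA was 1308 to 1444 CPM (counts scaled to a common library size) in ESCs and 197 to 233 CPM in EpiLCs. The summed level of 3 primed markers (Dnmt3b, Otx2, Fgf5) was 102 to 189 CPM in ESCs and 1057 to 1150 CPM in EpiLCs. That of 2 markers listed for both states (Pou5f1, Sox2) was 1684 to 1852 CPM in ESCs and 920 to 1079 CPM in EpiLCs. Sox2 alone stood at 196, 169 and 210 CPM in ESCs and at 31.6, 24.2 and 29.3 CPM in EpiLCs. Within ESC total RNA, replicate 2 was highest for each primed marker and lowest for each naive marker. Dnmt3b stood at 97.8, 179 and 128 CPM and Fgf5 at 0.0729, 2.11 and 0.257 CPM in these libraries. Replicate 2 was also the highest of them for Prr5l, Rragb, Irs1, Irs2 and Castor2, described below. The mRNA rises of these genes passed in all 12 fits that left out 1 library. Summed over 11 markers of other cell types, total RNA held 14.6 to 18.9 CPM in ESCs and 32.3 to 38.3 CPM in EpiLCs, and RPFs held 23.1 to 26.3 and 62.6 to 67.7 CPM. Of these 11 genes, 3 stayed at or below 3 counts in every ESC total RNA library and 2 in every EpiLC total RNA library. Their part in the results below was not tested.

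mTOR is a protein kinase that works in 2 complexes. In mTORC1 it is held by the scaffold Raptor, the product of Rptor, and in mTORC2 by Rictor. The small GTPase Rheb switches mTORC1 on at the lysosome, and the TSC complex, made of the products of Tsc1 and Tsc2, switches Rheb off when growth factors are scarce. The Ragulator complex, whose subunits are encoded by the Lamtor genes, anchors the Rag GTPases to the lysosome so that amino acids can bring mTORC1 there. Active mTORC1 phosphorylates the S6 kinase encoded by Rps6kb1 and is known to favour translation of mRNAs that begin with a 5′ terminal oligopyrimidine (TOP) motif, a C followed by an unbroken run of pyrimidines.

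The first 20 bases of the annotated transcripts are shown because this motif is the best known sequence that mTORC1 acts through. Capitals mark the unbroken run of pyrimidines from the first base. The sequences are from RefSeq on GRCm38.p6, and Rps6, a ribosomal protein gene that is no member, is given for comparison.
Mtor: TCCCTggcctagaagacagc
Rheb: CCgcgcccgccgccgtgctc
Lamtor2: TCCTgggccaccggaagcga
Lamtor5: TTTgaaggcccagcaccccc
Rps6: CTCTTTTTCgtgacgcctcc
The Mtor sequence lies at chr4:148448582-148448601 on the plus strand, that of Rheb at chr5:24842342-24842361 on the minus strand, that of Lamtor2 at chr3:88552932-88552951 on the minus strand and that of Lamtor5 at chr3:107278858-107278877 on the plus strand. All are the 5′ ends of 5′ untranslated regions. None of the 10 genes began with C and at least 5 pyrimidines in a row from the first base, whereas Rps6 (chr4:86857348-86857367, minus strand) began with 9. Of 32851 annotated starts, 823 (2.505%) held this arrangement of letters. Mtor came closest with 5 pyrimidines, but its first letter is T, and Rptor, Rictor, Tsc1, Tsc2 and Lamtor1 began with a purine.

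The 3 measurements compared were mRNA (total RNA), RPFs and translational efficiency (TE), which relates footprints to the mRNA they came from, each as EpiLC over ESC on the log2 scale with a standard error (SE). A gene was said to rise or fall where limma with voom weights gave a Benjamini-Hochberg adjusted p under 0.05 over all 11750 genes. In mRNA, 4 of the 10 genes rose, 3 fell and 3 did not pass, against a background in which 34.6% of all genes rose and 30.7% fell. In RPFs, 2 rose, 3 fell and 5 did not pass, against 31.1% and 28.7% of all genes. With only 10 genes, these counts were near the shares of the whole table. The median change of the 10 genes was 0.12 in mRNA and −0.06 in RPFs, beside 0.03 and 0.01 over all genes. The changes were small. With the study's further limit of an absolute log2 change above 1, 24.3% of all genes passed in mRNA and none of the 10 did by limma, edgeR or DESeq2, and 26.0% of all genes passed in RPFs while 1 of the 10 did, Lamtor5.

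**Figure D1:**
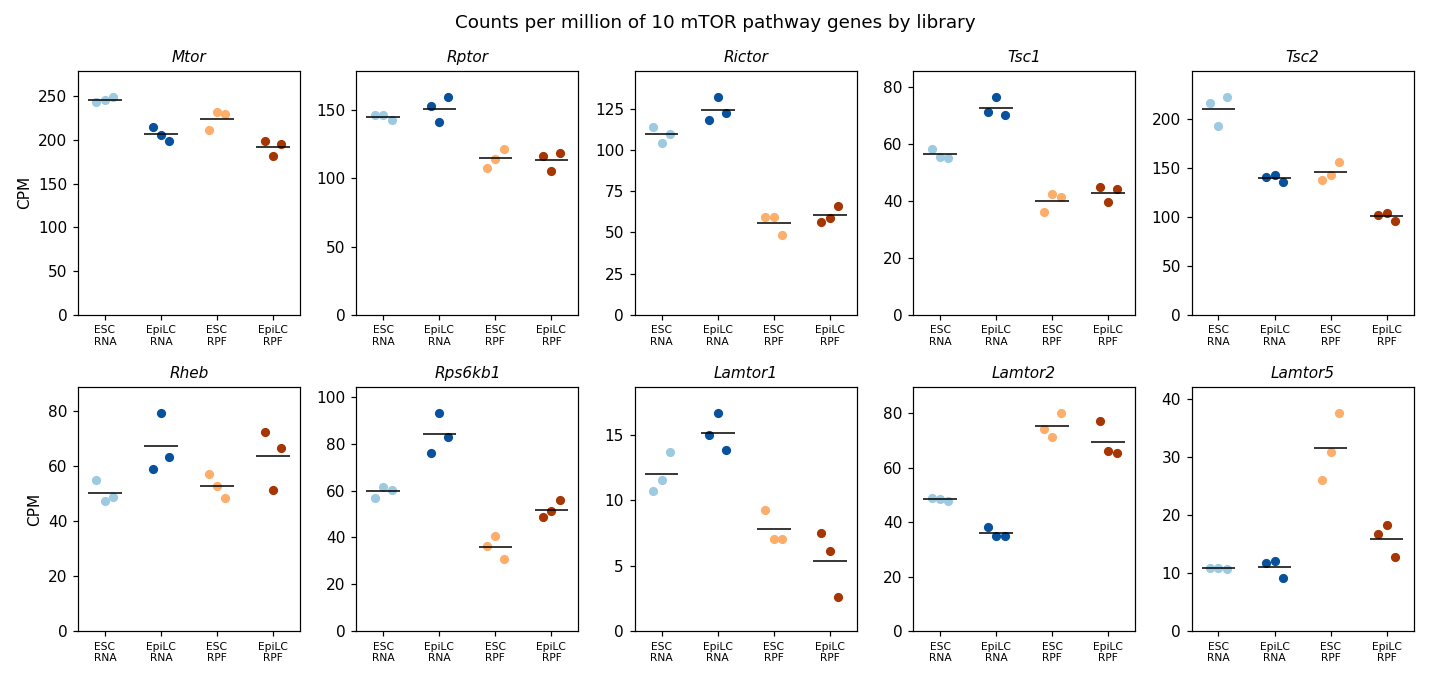
Level of each of the 10 genes in CPM (vertical axes, each from 0) in the 3 libraries of each group. Points are libraries and lines are group means. Tsc2 and Mtor were lower in EpiLCs in both assays, Rps6kb1 was higher in both, and Lamtor5 was lower only among RPFs, where the EpiLC libraries lay between 12.8 and 18.3 CPM and the ESC libraries between 26.0 and 37.5 CPM.

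Mtor, the kinase itself (ENSMUSG00000028991, chr4:148452316-148556860, plus strand, 57 counted coding blocks), fell modestly in both assays. In total RNA it stood at 244, 246 and 249 CPM in ESCs and at 216, 206 and 200 CPM in EpiLCs. The groups did not overlap, and the change was −0.25 (SE 0.06, limma adjusted p = 0.000603). Among RPFs it stood at 212, 232 and 230 CPM in ESCs and at 198, 181 and 196 CPM in EpiLCs, again without overlap. The RPF change of −0.22 (SE 0.07, limma adjusted p = 0.00912) was close to that of the mRNA, and the TE change was 0.03 (SE 0.09, limma adjusted p = 0.917). The 3 genes whose centred log2 CPM over the 12 libraries lay nearest to that of Mtor were Tti1, Urb1 and Slu7. Their root mean square differences were 0.07, 0.07 and 0.07, with a median of 0.52 over all tested genes. They were picked as the smallest differences, so lying below the median follows from the choice.

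The scaffolds of the 2 complexes moved little. Rptor, which recruits substrates to mTORC1 (ENSMUSG00000025583, chr11:119603855-119897482, plus strand), stood at 147, 147 and 143 CPM in ESC total RNA and at 153, 141 and 160 CPM in EpiLC total RNA, and the groups overlapped. Its changes were 0.06 (SE 0.07) in mRNA and −0.00 (SE 0.08) in RPFs, with limma adjusted p of 0.418 and 0.987. Rictor, which defines mTORC2 (ENSMUSG00000050310, chr15:6708448-6796236, plus strand), stood at 114, 104 and 110 CPM in ESC total RNA and at 118, 132 and 122 CPM in EpiLC total RNA. The libraries did not overlap, and the mRNA change of 0.17 (SE 0.07) passed narrowly with a limma adjusted p of 0.0463. That call was lost in 9 of 11 other analyses of all libraries, edgeR (adjusted p = 0.0759) and limma on total RNA alone (adjusted p = 0.0714) included, and in 10 of 12 fits that left out 1 library, where the adjusted p reached 0.162. It held only without ESC total RNA replicate 1 or EpiLC total RNA replicate 1. The RPF change of Rictor was 0.16 (SE 0.11, limma adjusted p = 0.231).

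The balance between the scaffolds was compared as a ratio of counts per kilobase (kb) of counted sequence within each library, which needs no scaling between libraries. Rptor over Rictor was 1.65, 1.80 and 1.67 in ESC total RNA and 1.66, 1.37 and 1.68 in EpiLC total RNA. Among RPFs it was 2.33, 2.47 and 3.24 in ESCs and 2.66, 2.30 and 2.31 in EpiLCs. The log2 ratio differed by −0.13 in total RNA and by −0.13 in RPFs, with 2-sided exact permutation p of 0.5 for both and 0.5 after adjustment over the 4 ratios tested. With 3 libraries against 3 this test cannot go below 0.1.

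The subunits of the TSC complex went in opposite directions in mRNA. Tsc1, which stabilises the complex (ENSMUSG00000026812, chr2:28658730-28687173, plus strand), stood at 58.4, 55.6 and 55.2 CPM in ESC total RNA and at 71.2, 76.6 and 70.4 CPM in EpiLC total RNA. Every EpiLC library was above every ESC library, and the rise was 0.36 (SE 0.08, limma adjusted p = 0.000295). Among RPFs Tsc1 stood at 36.0, 42.5 and 41.5 CPM in ESCs and at 44.8, 39.6 and 44.3 CPM in EpiLCs. The RPF groups overlapped, with a change of 0.13 (SE 0.12, limma adjusted p = 0.353), and the TE change was −0.23 (SE 0.14, limma adjusted p = 0.492). Tsc2, the subunit that acts on Rheb (ENSMUSG00000002496, chr17:24596605-24632037, minus strand), stood at 216, 193 and 222 CPM in ESC total RNA and at 140, 142 and 136 CPM in EpiLC total RNA. Among RPFs it stood at 138, 143 and 156 CPM in ESCs and at 102, 104 and 95.5 CPM in EpiLCs. The groups did not overlap in either assay, and Tsc2 fell by 0.59 (SE 0.07) in mRNA and by 0.55 (SE 0.09) in RPFs, with a TE change of 0.04 (SE 0.11).

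Set against each other within a library, Tsc1 per kb was 0.407, 0.434 and 0.374 of Tsc2 in ESC total RNA and 0.764, 0.810 and 0.781 in EpiLC total RNA. Among RPFs the ratio was 0.394, 0.448 and 0.400 in ESCs and 0.661, 0.574 and 0.699 in EpiLCs. The log2 ratio was higher in EpiLCs by 0.96 in total RNA and by 0.64 in RPFs, and no EpiLC library overlapped an ESC library. Both comparisons gave the smallest p that the 2-sided exact permutation test allows, 0.1, and 0.2 after adjustment over the 4 ratios. The test therefore could not pass the threshold whatever the separation.

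**Figure D2:**
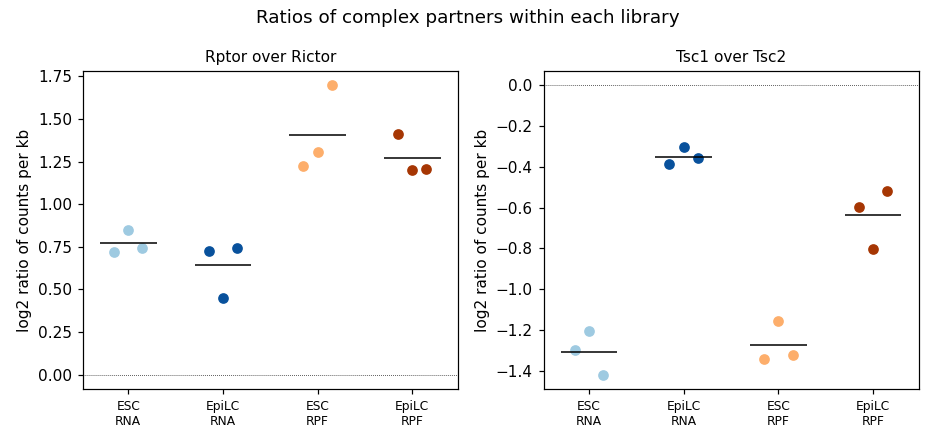
Log2 ratio of counts per kb of Rptor over Rictor and of Tsc1 over Tsc2 in each library (points), with group means (lines). The dotted line marks equal levels. Tsc1 over Tsc2 lay higher in all EpiLC libraries than in all ESC libraries of the same assay, by 0.96 in total RNA and 0.64 in RPFs, while Rptor over Rictor overlapped.

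Rheb, the GTPase that activates mTORC1 (ENSMUSG00000028945, chr5:24803664-24842191, minus strand), rose in mRNA. It stood at 54.9, 47.2 and 48.8 CPM in ESC total RNA and at 59.0, 79.2 and 63.4 CPM in EpiLC total RNA, without overlap and with 1 EpiLC library well above the other two. The rise was 0.37 (SE 0.10, limma adjusted p = 0.00326). Among RPFs Rheb stood at 57.0, 52.5 and 48.3 CPM in ESCs and at 72.4, 51.3 and 66.6 CPM in EpiLCs. These groups overlapped, and the rise of 0.31 (SE 0.13) passed with a limma adjusted p of 0.0427. The RPF call was lost without ESC RPF replicate 2 (adjusted p = 0.101), ESC RPF replicate 3 (0.25), ESC total RNA replicate 3 (0.0521), EpiLC RPF replicate 1 (0.312) or EpiLC RPF replicate 3 (0.162), the value then falling as low as 0.18.

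Rps6kb1, the S6 kinase that carries the mTORC1 signal to the translation machinery (ENSMUSG00000020516, chr11:86502725-86544661, minus strand), rose in both assays. It stood at 57.0, 61.7 and 60.4 CPM in ESC total RNA and at 76.1, 93.1 and 83.0 CPM in EpiLC total RNA. Among RPFs it stood at 36.3, 40.6 and 30.8 CPM in ESCs and at 48.5, 51.3 and 55.9 CPM in EpiLCs. No EpiLC library overlapped an ESC library in either assay. The rises were 0.47 (SE 0.09) in mRNA and 0.59 (SE 0.13, limma adjusted p = 0.000354) in RPFs, and the TE change was 0.12 (SE 0.15, limma adjusted p = 0.794).

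The Ragulator subunits differed from each other. Lamtor2 (ENSMUSG00000028062, chr3:88549948-88552818, minus strand) fell in mRNA, from 48.8, 48.6 and 47.8 CPM in ESCs to 38.1, 35.1 and 34.8 CPM in EpiLCs, a change of −0.41 (SE 0.09, limma adjusted p = 0.000346). Its RPFs overlapped, with 74.2, 71.3 and 80.1 CPM in ESCs and 77.4, 66.2 and 65.3 CPM in EpiLCs. The RPF change was −0.12 (SE 0.10, limma adjusted p = 0.289) and the TE change 0.29 (SE 0.13, limma adjusted p = 0.323).

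Lamtor5 (ENSMUSG00000087260, chr3:107278962-107283695, plus strand) was the 1 gene of the 10 whose TE passed the test. Its total RNA overlapped between cell types, at 10.9, 10.8 and 10.7 CPM in ESCs and at 11.8, 12.02 and 9.17 CPM in EpiLCs, with a change of 0.02 (SE 0.18). Its RPFs did not overlap, at 26.0, 30.8 and 37.5 CPM in ESCs and at 16.8, 18.3 and 12.8 CPM in EpiLCs, and fell by 1.05 (SE 0.19). These levels rest on 145 to 409 counts per ESC RPF library and 48 to 81 per EpiLC RPF library. The TE change was −1.07 (SE 0.26, limma adjusted p = 0.0383), and it also exceeded the limit of 1. Over all genes 0.570% rose and 0.630% fell in TE, and 0.255% passed with the further limit. None of the 10 genes rose in TE by limma, edgeR or DESeq2, and at an unadjusted p under 0.05 limma gave 1 higher, Lamtor2, and 2 lower, Lamtor1 and Lamtor5.

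The TE call of Lamtor5 stood close to the threshold. Over 11 other analyses of all libraries its value ran from −1.11 to −0.99 and its adjusted p from 0.013 to 0.0803, and the call was lost with limma-trend and when every gene with a count was tested. It was also lost in 9 of 12 fits that left out 1 library, where the value ran from −1.23 to −0.88 and the adjusted p from 0.0131 to 0.145. It held only without ESC RPF replicate 1, EpiLC RPF replicate 1 or EpiLC total RNA replicate 3. The fall in RPFs passed in all of these fits, with values between −1.24 and −0.89 when 1 library was left out.

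Lamtor1, the subunit that ties Ragulator to the lysosomal membrane (ENSMUSG00000030842, chr7:101909667-101926464, plus strand), had the fewest counts, between 14 and 77 per RPF library. It stood at 10.7, 11.6 and 13.7 CPM in ESC total RNA and at 15.0, 16.7 and 13.9 CPM in EpiLC total RNA. Among RPFs it stood at 9.23, 7.02 and 7.06 CPM in ESCs and at 7.47, 6.08 and 2.63 CPM in EpiLCs, where the groups overlapped and 1 EpiLC library was far below the others. None of its changes passed, at 0.34 (SE 0.16) in mRNA, −0.70 (SE 0.33) in RPFs and −1.04 (SE 0.37, limma adjusted p = 0.176) in TE. Single libraries decided these values: without EpiLC RPF replicate 3 the RPF change was −0.17 and the TE change −0.48, and without EpiLC RPF replicate 1 they were −1.13 (adjusted p = 0.0184) and −1.44 (adjusted p = 0.0971). The RPF change also passed without ESC RPF replicate 3 (−0.84, adjusted p = 0.0495) and in 2 of 11 other analyses of all libraries, and the mRNA change passed without ESC total RNA replicate 3 (0.43, adjusted p = 0.0421) and in 2 of 11.

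Both genes share sequence with other genes, and reads with more than 1 position had been discarded before counting. Of the 28-nt stretches in the counted coding sequence, the length of a typical footprint, 75.9% in Lamtor1 and 44.6% in Lamtor5 also occur in transcripts of other genes (Gm5510 and Gm13077, and Gm15190 and Gm13537). Of the 50-nt stretches, 48.1% and 34.6% do. The other 8 genes share none. Levels and TE levels of Lamtor1 and Lamtor5 are therefore uncertain, and the part of the sharing in the TE changes was not tested. Over the 988 tested genes with more than 40% of their 28-nt stretches shared, the median TE change was 0.01. In this group 17 genes were higher and 13 (1.32%) lower. Over the 8067 genes with no shared stretch the median was 0.01, with 35 higher and 39 (0.483%) lower. For its size, the group with shared stretches thus held more TE calls in both directions.

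**Figure D3:**
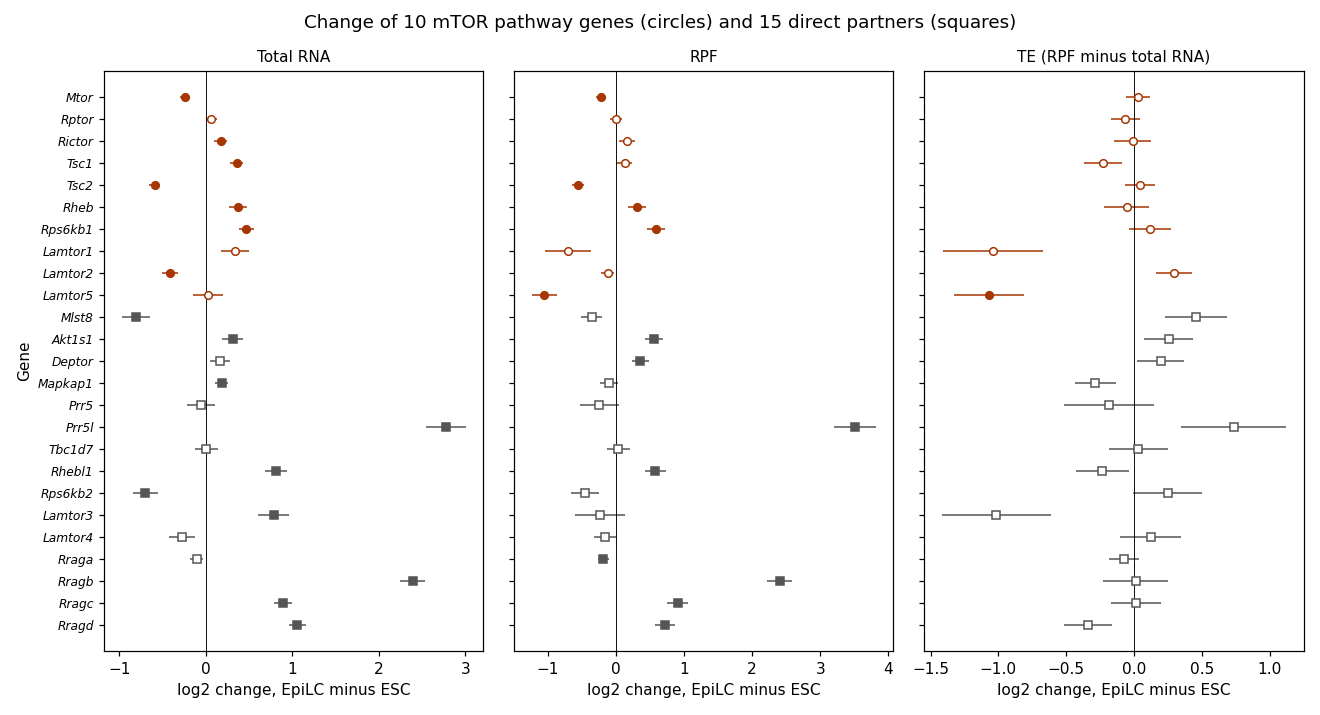
Log2 change from ESC to EpiLC in total RNA, RPFs and TE for the 10 genes (circles) and 15 direct partners (squares), with bars of 1 SE. Filled symbols passed an adjusted p of 0.05. The horizontal scales differ between panels. In TE, Lamtor5 at −1.07 is the 1 filled symbol, and Lamtor1 and Lamtor3 lie beside it with longer bars.

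Levels were compared between genes per kb of counted sequence, on the CPM scale. In ESC total RNA the order from the highest was Lamtor2 (145 ± 1.61 CPM per kb, SD, n = 3), Rheb (98.6 ± 7.97), Tsc2 (40.6 ± 2.99), Rptor (36.7 ± 0.549), Mtor (32.1 ± 0.373), Rps6kb1 (31.5 ± 1.27), Lamtor5 (27.5 ± 0.186), Lamtor1 (25.1 ± 3.25), Rictor (21.5 ± 0.951) and Tsc1 (16.4 ± 0.503). Mtor overlapped with Rps6kb1 and Lamtor5 with Lamtor1, and the other neighbours did not overlap. In EpiLC total RNA, Rheb (132 ± 20.8) stood above Lamtor2 (108 ± 5.49) and Rps6kb1 (44.3 ± 4.50) came next, overlapping with Rptor (38.2 ± 2.39). Below them Lamtor1, Lamtor5, Mtor and Tsc2 followed in that order, each overlapping with its neighbour in this run. Lamtor2 and Rheb had the highest mean RPF levels in both cell types, at 226 ± 13.5 and 103 ± 8.62 CPM per kb in ESCs and 209 ± 20.2 and 124 ± 21.3 in EpiLCs. Lamtor5 came next in ESC RPFs (80.1 ± 14.7) and overlapped with Rheb. Rictor and Tsc1 were among the lowest RPF levels in both cell types, at 10.9 ± 1.26 and 11.6 ± 1.02 in ESCs and 11.9 ± 1.00 and 12.5 ± 0.841 in EpiLCs. The median tested gene stood at 21.8 CPM per kb in ESC total RNA and 19.1 in ESC RPFs.

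Length was also counted over stretches found in no other gene, in a single coding sequence per gene. Lamtor1 then stood at 59.4 ± 7.67 and Lamtor5 at 48.4 ± 0.328 CPM per kb in ESC total RNA, above Tsc2. In ESC RPFs Lamtor5 stood at 157 ± 28.7 and Rheb at 110 ± 9.15. Rps6kb1 shares no stretch, but its coding sequence of 1575 nt is shorter than its 1897 counted nt. On this length Rps6kb1 stood at 40.3 ± 1.63 in ESC total RNA, above Rptor (37.2 ± 0.556) and Mtor (32.6 ± 0.379). In EpiLC total RNA it stood at 56.8 ± 5.77, beside Rptor at 38.7 ± 2.42. The places of Lamtor1, Lamtor5 and Rps6kb1 in the order thus depend on how length is counted.

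The TE level, the fitted log2 ratio of RPF to total RNA within a cell type, set the genes apart more than the cell types did. In ESCs Lamtor5 stood at 1.55 (SE 0.15), the 98.0th percentile of all tested genes, and Lamtor2 at 0.65 (SE 0.08), the 82.3rd. Rheb stood at 0.05 (SE 0.11) and Mtor at −0.14 (SE 0.06), near the middle. Rptor (−0.34, SE 0.07), Tsc1 (−0.50, SE 0.09), Tsc2 (−0.52, SE 0.07), Lamtor1 (−0.61, SE 0.21) and Rps6kb1 (−0.78, SE 0.11) were lower, and Rictor was lowest at −1.01 (SE 0.09), the 13.9th percentile. In EpiLCs Rictor stood at −1.02 (SE 0.10), the 14.2nd percentile, and Lamtor2 at 0.94 (SE 0.10), while Lamtor5 stood at 0.48 (SE 0.21), the 73.1st, and Lamtor1 at −1.66 (SE 0.30), the 5.17th. With length counted over stretches in no other gene, Lamtor1 stood at 0.40 in ESCs and −0.46 in EpiLCs and Lamtor5 at 0.69 in EpiLCs.

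**Figure D4:**
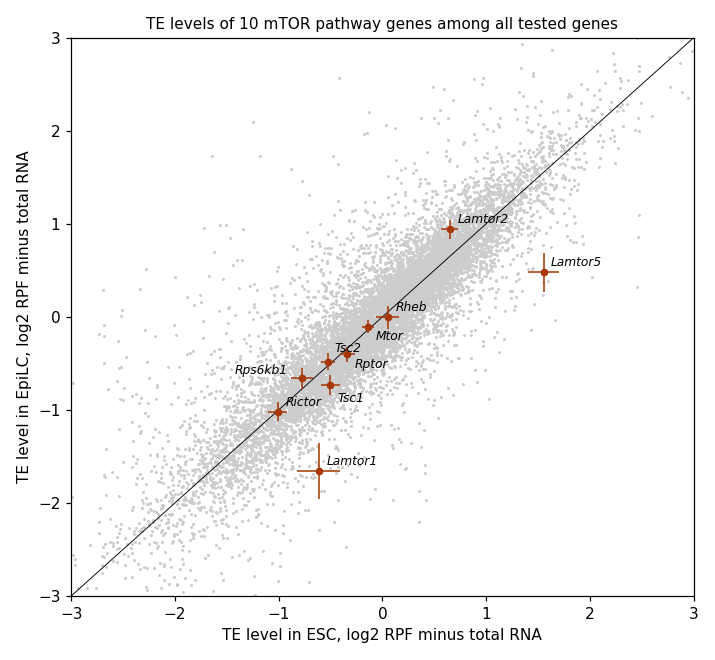
TE level in EpiLC against TE level in ESC, both as log2 RPF minus total RNA, for the 10 genes (red, bars of 1 SE) among all tested genes within the axis limits (grey). The line marks equal TE. Lamtor5 (1.55 in ESC, 0.48 in EpiLC) and Lamtor1 (−0.61 and −1.66) lie below the line and the other 8 genes lie closer to it.

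Of 15 direct partners of the 10 gene products, 8 rose and 2 fell in mRNA, where 34.6% and 30.7% of all genes did, and 7 rose and 1 fell in RPFs, beside 31.1% and 28.7%. Past the limit of 1 were 3 partners in mRNA and 2 in RPFs, beside 24.3% and 26.0% of all genes. The median partner changed by 0.18 in mRNA and 0.04 in RPFs. Prr5l, a gene for an mTORC2-binding protein, rose most, from 2.11, 5.14 and 3.60 CPM in ESC total RNA to 21.9, 23.2 and 24.5 CPM in EpiLC total RNA, a change of 2.78 (SE 0.23) in mRNA and 3.51 (SE 0.31) in RPFs. Among the Rag GTPases, which bind mTORC1 when amino acids are present, Rragb rose from 8.68, 15.7 and 10.97 CPM to 55.0, 65.7 and 61.3 CPM in total RNA, a change of 2.39 (SE 0.15), and by 2.40 (SE 0.19) in RPFs. Its close relative Rraga stood at −0.11 (SE 0.08) in mRNA and fell by 0.18 (SE 0.07, limma adjusted p = 0.037) in RPFs, a call lost without EpiLC RPF replicate 2 (−0.17, adjusted p = 0.074). Rragc and Rragd rose by 0.89 (SE 0.10) and 1.06 (SE 0.10) in mRNA and by 0.91 (SE 0.15) and 0.72 (SE 0.15) in RPFs.

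Of the other partners, Mlst8, a subunit of both complexes, fell by 0.81 (SE 0.16) in mRNA and stood at −0.36 (SE 0.16, limma adjusted p = 0.057) in RPFs. The RPF fall of Mlst8 passed in 6 of 11 other analyses of all libraries and in 3 of 12 fits without 1 library. Rps6kb2, the second S6 kinase gene, fell by 0.70 (SE 0.14) in mRNA and stood at −0.46 (SE 0.21) in RPFs, and Rhebl1, a relative of Rheb, rose by 0.81 (SE 0.13) and 0.58 (SE 0.15), the RPF call being lost without EpiLC RPF replicate 3 (0.39, adjusted p = 0.0542). Akt1s1, which encodes the mTORC1 inhibitor PRAS40, rose by 0.31 (SE 0.13, limma adjusted p = 0.0349) in mRNA and 0.57 (SE 0.13) in RPFs. With a correction for GC content, however, the mRNA value was −0.13 and the RPF value 0.05, neither passing. Of 11 other analyses of all libraries, 5 more lost the mRNA call with its sign kept, and it held in 4. The mRNA call was also lost in 8 of 12 fits without 1 library. It held only without ESC RPF replicate 1, ESC RPF replicate 3, ESC total RNA replicate 3 or EpiLC total RNA replicate 3. Mapkap1, an mTORC2 subunit gene, stood at 0.18 (SE 0.08) in mRNA. It passed narrowly (limma adjusted p = 0.0475), but not by edgeR (adjusted p = 0.0931), not in 9 of 11 other analyses of all libraries and in none of the 12 fits without 1 library (adjusted p from 0.0556 to 0.123). Deptor, an inhibitor of both complexes, stood at 0.16 (SE 0.11) in mRNA and rose by 0.36 (SE 0.13) in RPFs, a call lost without EpiLC RPF replicate 3 (0.15, adjusted p = 0.36), ESC RPF replicate 2 (0.28, adjusted p = 0.0792) or ESC RPF replicate 3 (0.29, adjusted p = 0.0978). Prr5, Tbc1d7 and Lamtor4 passed in neither assay. Lamtor3, the Ragulator subunit that pairs with Lamtor2, rose by 0.78 (SE 0.17) in mRNA with an RPF change of −0.23 (SE 0.36) and a TE change of −1.02 (SE 0.40, limma adjusted p = 0.242). It had 81.3% of its 28-nt stretches in common with Gm5900, and 2.66 to 4.22 CPM in the RPF libraries.

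Further out in the pathway, 5 lists, the partners included, held 74 genes, of which 72 were tested. In mRNA 37 rose and 14 fell, beside 34.6% and 30.7% of all genes, and in RPFs 34 rose and 13 fell, beside 31.1% and 28.7%, with medians of 0.22 and 0.23 beside 0.03 and 0.01 over all genes. No gene passed in TE by limma or edgeR and 1 did by DESeq2, Eif4b, and limma gave 4 higher and 5 lower at an unadjusted p under 0.05. In the growth factor arm 10 of 13 genes rose and 2 fell in mRNA, and 6 of the 13 passed the limit of 1, which 24.3% of all genes passed. The receptors Igf1r and Insr rose by 1.43 (SE 0.07) and 1.54 (SE 0.07) in mRNA. The adaptors Irs1 and Irs2, which carry the receptor signal to PI3 kinase, rose by 3.35 (SE 0.25) and 2.71 (SE 0.12). Irs1 was near the floor in ESCs, at 2.84, 5.82 and 2.91 CPM in total RNA and 15, 3 and 8 counts in RPFs. It therefore passed the filter on low counts through its EpiLC libraries. Akt1, a kinase that inhibits the TSC complex, rose by 0.92 (SE 0.10) in mRNA and by 1.02 (SE 0.15) in RPFs.

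For the 3 remaining lists the mRNA shares over all genes are again 34.6% higher and 30.7% lower. In the amino acid arm, 10 of 21 tested genes rose and 3 fell in mRNA. Sesn3 and Castor2, members of families that sense amino acids for the pathway, rose by 1.14 (SE 0.11) and 1.89 (SE 0.30). Castor2 was low in ESC total RNA, at 1.09, 2.87 and 2.31 CPM. In the energy and stress arm, 3 of 9 rose and 1 fell in mRNA, with Ddit4l, related to an inhibitor of mTORC1, rising by 1.46 (SE 0.20). The 14 tested substrates were split, with 6 rising and 6 falling in mRNA and 7 and 6 in RPFs, beside 31.1% and 28.7% of all genes in RPFs. Tfeb, a transcription factor of lysosomal genes that mTORC1 restrains, fell from 30.3, 27.9 and 29.8 CPM to 3.81, 3.36 and 4.93 CPM in total RNA, a change of −2.86 (SE 0.19), and by 3.61 (SE 0.25) in RPFs. Sgk1, an mTORC2 target, fell by 2.11 (SE 0.09) in mRNA, and the autophagy genes Ulk1 and Atg13 fell by 1.91 (SE 0.09) and 1.02 (SE 0.12). Eef2k, which slows elongation, fell by 1.56 (SE 0.11), while Pdcd4, an inhibitor of translation initiation, rose by 1.27 (SE 0.10). Rps6, the S6 kinase substrate, had at most 1.10 CPM in any library and was not tested. Reads with more than 1 position had been discarded, which takes counts from genes with near-identical copies. Whether this applied to Rps6 was not tested, so its counts are not read as its expression level.

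**Figure D5:**
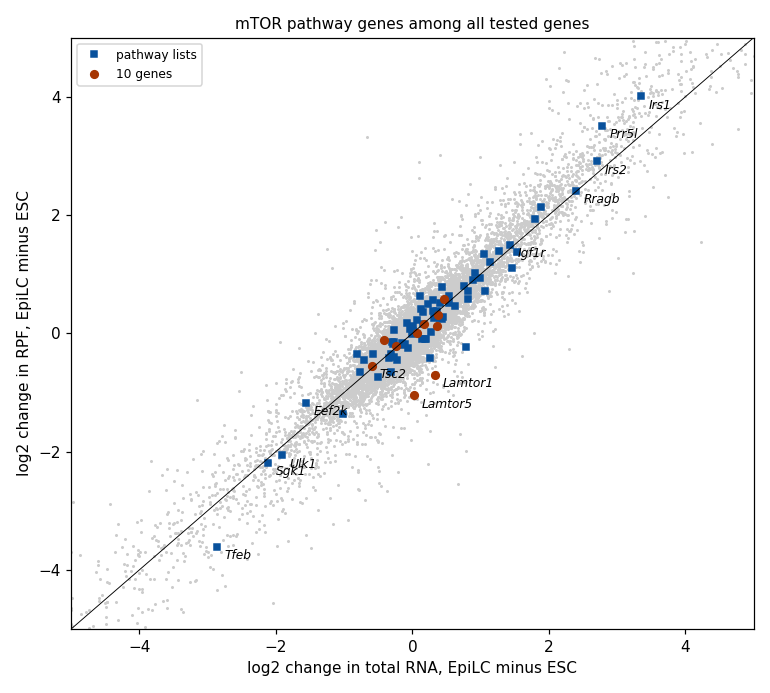
Log2 change in RPFs against log2 change in total RNA, EpiLC over ESC, for the 10 genes (red circles), the 72 tested genes of the pathway lists (blue squares) and all tested genes within the axis limits (grey). The line marks equal change. The 10 genes lie near the origin, except Lamtor5 and Lamtor1 below the line, while Irs1, Prr5l and Tfeb lie far out along it.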

How the data were processed

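The members, found by symbol, and the gene lists were chosen with earlier results of these data known. Ribosome profiling (TruSeq kit) of 12 libraries was deposited by the authors as 1 table of raw counts per gene. Per the labels and the study's methods, reads were trimmed with cutadapt 1.14, aligned to mm10 with STAR 2.5.3a, keeping reads with a single position, and counted on the sense strand by their 5′ end with featureCounts 1.5.3 over coding sequence without its first 45 nt. Genes with several near-identical copies therefore lose counts.

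Ensembl identifiers gave symbols for 22385 of 22462 genes. Genes with at least 3 CPM in at least 3 libraries (11750) were scaled by TMM (edgeR 4.0.16) and fitted with voom and limma 3.58.1 in R 4.3.3, with the 4 groups as levels and all 12 libraries sharing 1 estimate of the spread. TE was the interaction of cell type and assay. Ratios within libraries were compared by 2-sided exact permutation tests. The fit was tested on simulated data, where changes were recovered without bias. With no true change, however, the mRNA test gave somewhat more small p-values than its threshold states and the RPF test somewhat fewer, which edgeR did not. The narrow mRNA calls of Rictor and Mapkap1 are therefore given beside those of edgeR. Alternatives were edgeR, DESeq2 1.42.0, limma-trend, other scalings and filters, each assay alone, blocks, and leaving out each library. A GC correction and length over stretches in no other gene were added after seeing the data. Genes were named by rule: the 10 members, the direct partners, other pathway genes past both limits in any comparison, and the 3 genes nearest to Mtor. Some genes that the rule names are not reported here. Eif4b was named after its values were seen. Library pairs within groups differed by more than sampling noise (chi-square per degree of freedom 2.46 to 7.26), so none was counted as a duplicate. Counting error is smallest for the deep total RNA libraries and largest for EpiLC RPF replicate 2, where 3 counts correspond to 1.12 CPM.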

Additional observations from a re-analysis of the deposited data

Results flagged for a closer look

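The change of Lamtor5 differed between the assays by the interaction test: its RPFs fell while its total RNA did not pass, a TE change of −1.07 (limma adjusted p = 0.0383, 3 libraries per group). The call was lost in 9 of 12 fits without 1 library.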

How the results depend on the processing

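Over the 126 changes of named genes, 105 kept their direction and their side of the threshold in every analysis of all libraries, and the others lost 32 calls, gained 12 and changed sign 33 times, always from a value near 0 or, for Akt1s1, under GC correction. The causes were not tested. With an absolute log2 change above 1 required, the members higher and lower were 0 and 0 in mRNA and 0 and 1 in RPFs, and the pathway genes 13 and 5 in mRNA and 13 and 5 in RPFs. Rictor's mRNA call is among those lost. Members higher in RPFs numbered 1 with DESeq2, limma-trend, DESeq2 size factors or every gene with a count, Rheb being lost. Members lower in TE numbered 0 with limma-trend and with every gene with a count. Pathway genes higher in TE numbered 1 (Eif4b) with DESeq2, total count scaling, at least 10 counts in every library and the culture block. Testing every gene with a count put the RPF median of all genes at 0.13.

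These values changed sign, each beside its own value in the report's fit. Lamtor5 mRNA (0.024) came to −0.016 (DESeq2), −0.016 (DESeq2 size factors), −0.0082 (every gene with a count), −0.0040 (each assay on its own). Akt1s1 mRNA (0.31) came to −0.13 (GC correction), −0.12 (GC correction with replicate block). Tbc1d7 mRNA (0.0043) came to −0.031 (DESeq2), −0.036 (DESeq2 size factors), −0.028 (every gene with a count), −0.016 (at least 10 counts in every library), −0.024 (each assay on its own), −0.032 (GC correction), −0.036 (GC correction with replicate block). Rptor RPF (−0.0019) came to 0.027 (total count scaling). Tbc1d7 RPF (0.035) came to −0.018 (DESeq2), −0.0060 (limma-trend). Mtor TE (0.03) came to −0.00080 (GC correction), −0.00075 (GC correction with replicate block). Rictor TE (−0.011) came to 0.020 (total count scaling), 0.0016 (DESeq2 size factors), 0.010 (at least 10 counts in every library), 0.086 (GC correction), 0.086 (GC correction with replicate block). Rheb TE (−0.055) came to 0.11 (GC correction), 0.11 (GC correction with replicate block). Tbc1d7 TE (0.031) came to −0.021 (limma-trend). Rragb TE (0.011) came to −0.034 (limma-trend), −0.013 (culture block). Rragc TE (0.013) came to −0.037 (edgeR), −0.026 (DESeq2), −0.084 (limma-trend), −0.0036 (replicate block), −0.019 (culture block). With 1 library left out, calls of named genes were also lost or gained without a change of sign in mRNA for Rictor, Akt1s1, Mapkap1, Lamtor1, Lamtor4 (−0.44 to −0.067), Tti1 (−0.20 to −0.11) and Slu7 (−0.26 to −0.18), in RPFs for Rheb, Deptor, Rhebl1, Rraga, Lamtor1, Mlst8 (−0.57 to −0.25), Rps6kb2 (−0.62 to −0.23) and Urb1 (−0.23 to −0.10), and in TE for Lamtor5. The ranges that changed a sign or a count of genes by over 1.5 times were Lamtor5 mRNA −0.059 to 0.14, Prr5 mRNA −0.35 to 0.15, Tbc1d7 mRNA −0.050 to 0.065, members higher in EpiLC, RPF 1 to 2, Rptor RPF −0.094 to 0.025, Prr5 RPF −0.47 to 0.079, Tbc1d7 RPF −0.11 to 0.086, members lower in EpiLC, TE 0 to 1, pathway genes higher in EpiLC, TE 0 to 1, Mtor TE −0.017 to 0.065, Rictor TE −0.13 to 0.047, Tsc2 TE −0.010 to 0.11, Rheb TE −0.17 to 0.044, Rps6kb1 TE −0.0066 to 0.18, Prr5 TE −0.39 to 0.17, Tbc1d7 TE −0.083 to 0.11, Lamtor4 TE −0.083 to 0.29, Rragb TE −0.21 to 0.23, Rragc TE −0.13 to 0.087, Sesn3 TE −0.079 to 0.16, Castor2 TE −0.019 to 0.70, Sgk1 TE −0.14 to 0.0078, log2 Rptor over Rictor, RPF, EpiLC minus ESC −0.23 to 0.010.

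Deviations of same-numbered libraries of the 2 cell types correlated at −0.013 to 0.033 in total RNA and 0.019 to 0.04 in RPFs. Between RPFs and total RNA of the same number they correlated at −0.18 to 0.08 in ESCs and 0.015 to 0.16 in EpiLCs. With 3 libraries per group, these values cannot tell whether same-numbered libraries were paired. With the replicate block, members higher and lower numbered 5 and 3 in mRNA, 2 and 3 in RPFs and 0 and 1 in TE. With 3 libraries per group, the TE changes of the members had SEs of 0.09 to 0.37. A change well above its SE could still fail the test, as that of Lamtor1 did (−1.04, SE 0.37, limma adjusted p = 0.176). Small TE changes could therefore be missed with these libraries, most of all for Lamtor1.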
